A study of Homo sapiens with 12 samples.

Results

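Box C/D small nucleolar RNAs (snoRNAs) were taken as all gene symbols made of SNORD and a digit, and 275 of the 55765 symbols counted in these cells met that rule. The cells were SH-SY5Y, 1 human neuroblastoma line, which took on a neuron-like state over 7 days in ATRA (all-trans retinoic acid, 10 μM). In the co-treatment experiment H2O2 was present throughout those 7 days, and in the pre-treatment experiment cells met H2O2 for 72 h before ATRA was added. Each experiment had 3 treated replicates and 3 controls given ATRA alone, 12 libraries in all. The dose of H2O2 reads 10 mM in the design text and 10 μM in the study's methods, so both are given here. The sources do not say whether replicates were separate cultures, so p-values measure the spread between these libraries, which may be technical. All results belong to 1 tumour cell line.

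Box C/D snoRNAs are short RNAs of the nucleolus, mostly cut from introns of host genes, that hold a C box and a D box bound by fibrillarin, NOP56, NOP58 and SNU13. Most pair with ribosomal RNA (rRNA) and direct methylation of a ribose in it, whereas U3, U8, U13 and U14 act in cleavage, folding or other modification of the rRNA precursor. A further set lies in imprinted arrays that are read mainly in neurons and has no agreed rRNA target, and loss of the paternal SNORD116 array is tied to Prader-Willi syndrome.

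The reads fell on very few of these RNAs, and the ones below are printed because the counts or the calls turn on them. Letters come from GRCh37 (hg19), read 5′ to 3′ on the strand of the RNA. Capitals mark TGATGA, the core of the C box, and the last CTGA, the D box, where that strand held them. SNORD3A (U3, chr17:19091329-19091545, plus strand, the first 217 bases of its annotated gene) and SNORD17 (chr20:17943353-17943589, minus strand) held most of the reads, and SNORD94 (chr2:86362993-86363129, plus strand) was among the next most counted with an annotated locus.
SNORD3A: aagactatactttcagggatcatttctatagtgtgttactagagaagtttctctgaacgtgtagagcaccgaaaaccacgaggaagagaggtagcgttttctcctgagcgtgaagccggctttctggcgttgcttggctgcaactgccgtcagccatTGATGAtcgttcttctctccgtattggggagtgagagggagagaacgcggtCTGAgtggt
SNORD17: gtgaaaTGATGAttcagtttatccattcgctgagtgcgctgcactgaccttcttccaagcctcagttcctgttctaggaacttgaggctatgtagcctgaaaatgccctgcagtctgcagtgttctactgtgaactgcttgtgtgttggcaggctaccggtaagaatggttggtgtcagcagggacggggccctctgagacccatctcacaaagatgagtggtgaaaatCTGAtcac
SNORD94: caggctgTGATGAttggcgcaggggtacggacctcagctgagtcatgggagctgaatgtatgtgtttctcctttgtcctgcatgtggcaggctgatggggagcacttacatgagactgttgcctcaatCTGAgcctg

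SNORD116-19 (chr15:25331674-25331765), SNORD116-18 (chr15:25330532-25330623) and SNORD116-13 (chr15:25324205-25324296), all on the plus strand, are shown because they are copies in 1 array whose counts depend on how similar reads were assigned. Over 92 bases SNORD116-19 matched SNORD116-17 at every base, SNORD116-18 at 91 and SNORD116-13 at 80. SNORD108 (chr15:25232072-25232142, plus strand), a single copy upstream of that array, and SNORD104 (chr17:62223443-62223512, plus strand), a guide for large-subunit rRNA, are shown as short members with over 1000 counts.
SNORD116-19: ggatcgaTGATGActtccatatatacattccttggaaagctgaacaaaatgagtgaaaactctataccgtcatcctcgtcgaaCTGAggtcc
SNORD116-18: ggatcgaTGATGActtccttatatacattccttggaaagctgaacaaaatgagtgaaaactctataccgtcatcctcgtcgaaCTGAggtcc
SNORD116-13: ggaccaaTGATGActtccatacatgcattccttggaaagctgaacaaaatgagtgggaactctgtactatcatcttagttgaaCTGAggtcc
SNORD108: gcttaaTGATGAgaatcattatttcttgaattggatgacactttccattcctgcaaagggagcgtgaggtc
SNORD104: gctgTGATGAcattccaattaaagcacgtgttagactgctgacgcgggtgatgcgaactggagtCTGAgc

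Of the 222 members with 1 annotated locus other than U3 copies, 73.0% held TGATGA in their first 20 bases and 93.7% held CTGA in their last 20 bases on the strand of the RNA (the 2 strings can share bases in a run such as CTGATGA). SNORD108 had no CTGA in its last 20 bases. The 103 members of this kind with no read held the letters about as often, 72.8% and 96.1%.

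Reads counted on genes ranged from 27576276 to 98287391 per library. Counts were scaled here with edgeR's TMM factors over the 12 libraries and are given as CPM, counts scaled to a common library size. Noradrenergic neuroblastoma markers such as HAND2 (306 to 564 CPM) and CHGA (302 to 858 CPM) were present in all libraries and TH, the enzyme that starts catecholamine synthesis, was near 0 (0.010 to 0.263 CPM). The blood markers PTPRC and HBB were at most 0.704 CPM. Of the mesenchymal markers, FN1 was at 66.8 to 235 CPM and CD44 at 0.584 to 3.63 CPM, and FOSL1, YAP1 and PRRX1 were at most 1.05 CPM. Small-RNA loci of all kinds took 1.59% and 2.88% of counted reads in pre-treatment control replicates 1 and 2, 17.6% in pre-treatment control replicate 3 and 13.3% to 15.1% in the pre-treated libraries, and 5.04% to 13% across the co-treatment experiment. Reads outside annotated genes moved the other way in the pre-treatment controls (0.800, 0.830 and 0.200 per counted read, against 0.343 to 0.462 in the treated libraries). In bulk RNA, fewer cells of a kind and less RNA per cell cannot be told apart. The part of either share in the results below was not tested, and each pre-treatment result is given with and without control replicate 3.

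Among the 275 members, 112 had no read in any of the 12 libraries, which over 686117187 counted reads allows a level of up to 0.00437 CPM each (3 counts, for counting error only). A further 39 had 1 to 9 counts in all, 59 had 10 to 99, 52 had 100 or more but under 1000, and 13 had 1000 or more. U3 alone, as the 5 symbols SNORD3A, SNORD3B-1, SNORD3B-2, SNORD3C and SNORD3D, took 95.2% of the 3762875 reads on members, and SNORD17 took 3.57%. Between libraries the share of member reads on U3 ran from 92.6% to 96.9%. Per kilobase of annotated length, mean levels over the 12 libraries were 5634 CPM for SNORD3A, 682 for SNORD17, 57.5 for SNORD15B, 57.0 for SNORD94 and 39.3 for SNORD104. The annotated SNORD3A gene (699 bases) is longer than the U3 RNA, which lowers its value on this scale.

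Outside the SNORD113 to SNORD116 arrays, whether a member had any read went with where it lies in its host gene. Of 118 members with 1 annotated locus outside the SNORD113 to SNORD116 arrays, 49 had no read, and 41 of these (83.7%) overlapped an exon of another gene on the same strand. Among the other 69 the overlap was 18.8% (13 of 69). With the arrays included the contrast was smaller, 49.5% of the 103 members with no read and 35.8% of the 123 counted. Most SNORD116 copies with 1 locus lie inside an exon of SNHG14, and all were counted. Of 39 members within genes for ribosomal proteins or translation factors, 28 had no read, and 26 of those 28 lay inside an exon. The sources do not give the annotation, strand setting or overlap mode used in counting, and reads that fell on more than 1 gene were set aside by the counter (0.0606 to 0.0759 per counted read). A count of 0 at such a locus is a statement on counted reads, and the part of the overlap in it was not tested.

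**Figure D1:**
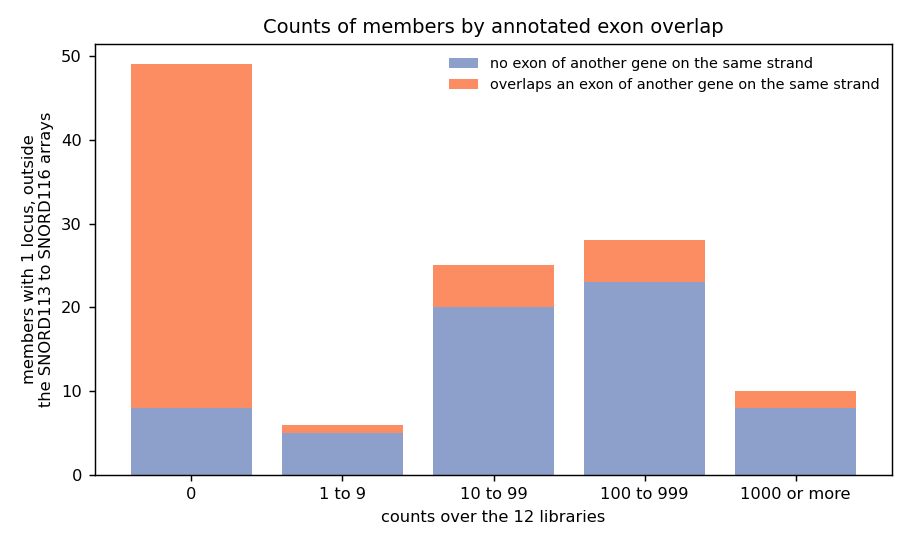
Number of members with 1 annotated locus outside the SNORD113 to SNORD116 arrays (vertical axis) by their summed counts over the 12 libraries (horizontal axis), split by whether the locus overlaps a same-strand exon of another gene. Overlap was found for 41 of the 49 members with no read and for 13 of the other 69.

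Among the members that act in processing of the rRNA precursor, U3 was by far the most counted. SNORD118 (U8), which lies inside an exon of TMEM107 and acts on the large-subunit rRNA, and SNORD13 (U13), which acts on small-subunit rRNA, were at 0 in every library. The symbols U8 and snoU13, which the SNORD naming does not take in, had 327 and 12956 counts over the 12 libraries, so the zeros belong to these 2 SNORD symbols and not to all U8 and U13 loci. For U14, which pairs with small-subunit rRNA, SNORD14A had 17 to 82 counts per library and SNORD14E 10 to 72, and SNORD14B, SNORD14C and SNORD14D, which lie inside exons of RPS13 or HSPA8, were at 0. The symbol SNORD22 had 0 to 10 counts, and its 1 annotated locus lies on chromosome 13 and not in SNHG1.

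The split of reads among the 5 U3 symbols is uncertain, and the shares of the minor copies varied between libraries, from 1.54% to 6.47% of member reads for SNORD3B-2 against 74.9% to 83.9% for SNORD3A. Over the first 217 bases SNORD3B-1 and SNORD3B-2 each differed from SNORD3A at 1 base (A78C, counted from 1 at the 5′ end, the base of SNORD3A first) and SNORD3C at 1 base (G108A), and SNORD3D had no match in the annotation. In the co-treatment experiment SNORD3A was at 1264, 3682 and 4518 CPM in the controls and at 1136, 5342 and 2994 CPM in the treated libraries. In the pre-treatment experiment it was at 671, 925 and 7571 CPM in the controls and at 6152, 8297 and 4703 CPM in the treated libraries. The co-treatment groups overlapped fully, and pre-treatment control replicate 3 lay among the treated libraries while the other 2 controls lay below every library of the series.

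SNORD17, the longest member after U3 and a guide for large-subunit rRNA, also had its lowest pre-treatment levels in control replicates 1 and 2. It was at 28, 86.4 and 210 CPM in the co-treatment controls and at 16.4, 124 and 61.4 CPM in the co-treated libraries. Pre-treatment controls had 21.5, 26.9 and 298 CPM and pre-treated libraries 407, 288 and 372 CPM. Control replicate 3 was again inside the treated range, and the 3 co-treatment controls alone spanned 7.48-fold.

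SNORD116-20, by its symbol the most counted copy of the imprinted SNORD116 array, varied far less. It had no match in the annotation, so its place in the array rests on its name. Its level was 10.8, 10.8 and 10.2 CPM in the co-treatment controls and 13.8, 19.7 and 18.9 CPM in the co-treated libraries. In the pre-treatment experiment it was 8.87, 7.51 and 14.5 CPM in the controls and 14.8, 15 and 17.1 CPM in the treated libraries. Pre-treatment control replicate 3 lay close under the lowest treated library.

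**Figure D2:**
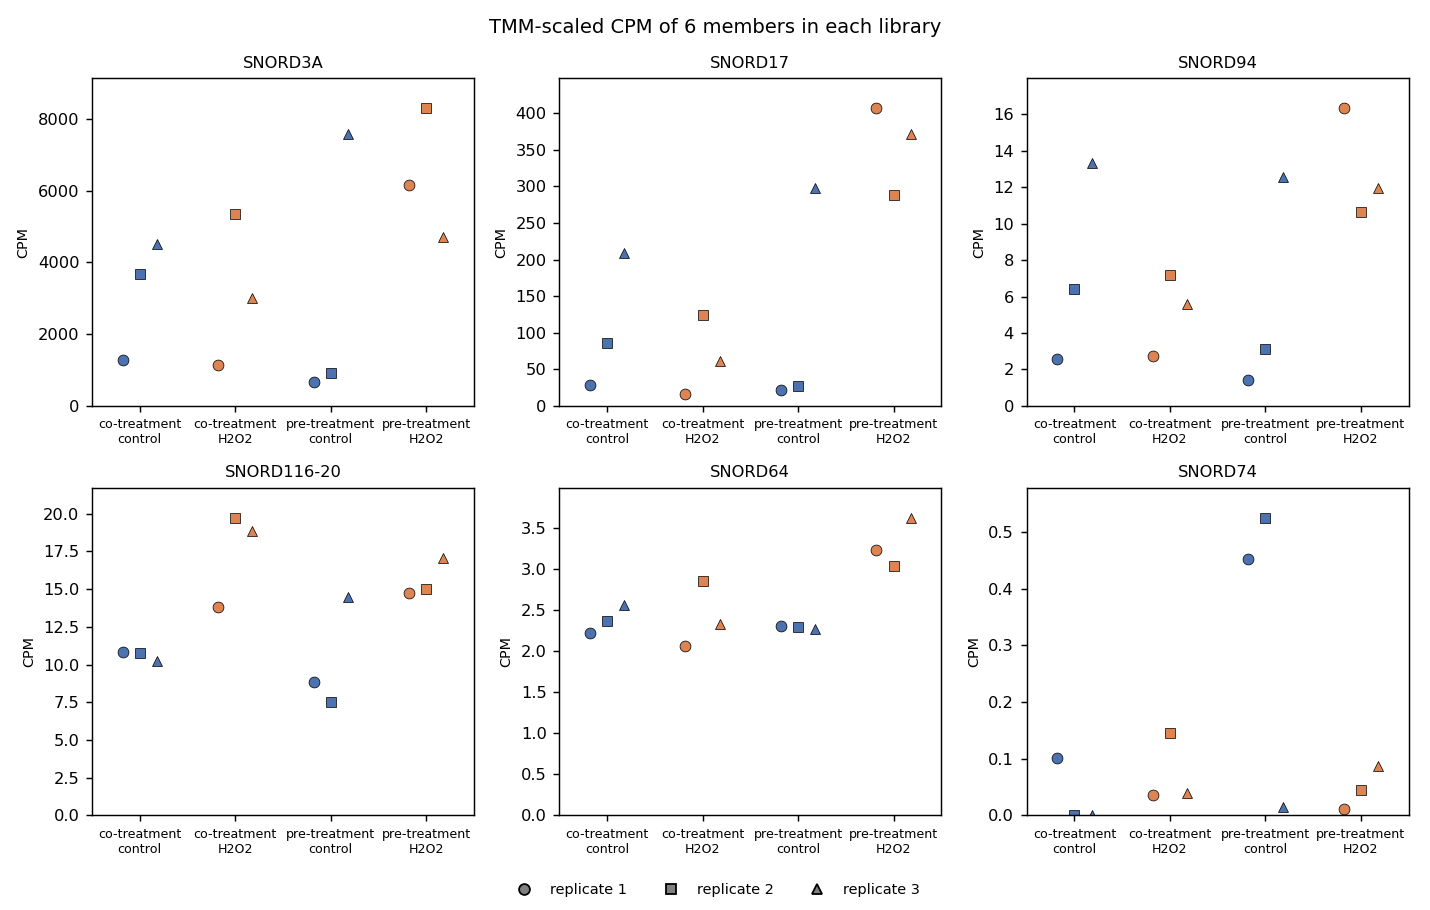
TMM-scaled CPM (vertical axes, linear from 0) of 6 members in each library, with controls in blue, H2O2 in orange and the marker shape giving the replicate number. SNORD3A, SNORD17 and SNORD94 vary several-fold within each control group, SNORD116-20 and SNORD64 much less, and SNORD74 is high in pre-treatment control replicates 1 and 2 alone.

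In the co-treatment experiment edgeR's quasi-likelihood test called 132 of 22089 genes (0.598%) with a Benjamini-Hochberg FDR below 0.05 and a log2FC beyond 0.6 in either direction. The test covered 58 members and called 0 of them, with 2 at an unadjusted p under 0.05, beside 1800 of the 22089 genes. DESeq2 called 1 member and edgeR's exact test 2, each with 307 of the 22089 genes called. The median log2FC of the 58 was 0.14, against -0.00 over all genes tested, with 34 positive and 24 negative values.

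SNORD116-20 had the smallest p (log2FC = 0.72, SE 0.17, FDR = 0.0937), and the sign was kept under the 5 other scalings tried, that on the summed member reads included. It was the 1 member that DESeq2 called (log2FC = 0.73, FDR = 0.00529), and it was called by edgeR's exact test (FDR = 0.0150) and by the quasi-likelihood test without co-treated replicate 1 (log2FC = 0.86, FDR = 0.0486). SNORD38, a symbol with 4 annotated loci, had the next smallest p, with 9, 15 and 10 counts in the controls and 0, 4 and 3 in the treated libraries (log2FC = -2.42, FDR = 0.335). The exact test called SNORD38 lower (log2FC = -2.40, FDR = 0.0409). U3 and SNORD17 gave values from -0.95 for SNORD3B-2 to 0.02 for SNORD3D with an FDR of 0.732 or more, and SNORD3A itself had 0.01 with an SE of 0.49. With no filter on low counts the quasi-likelihood test called SNORD3B-2 (FDR = 3.08e-08), SNORD3C (1.73e-05) and SNORD17 (0.000581) lower. It called SNORD116-20 higher there (FDR = 0.00442), beside 443 of 37237 genes called in all. SNORD78, a guide for large-subunit rRNA, had a log2FC of 0.77 (FDR = 0.621) and SNORD89 one of -1.02 (FDR = 0.641).

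In the pre-treatment experiment over all 6 libraries the same test called 6 of 24743 genes (0.0242%, log2FC beyond 1 in either direction). It covered 82 members and called 0, with 5 at an unadjusted p under 0.05, beside 2776 of the 24743 genes. DESeq2, limma-voom and edgeR's exact test also called 0 members. Over all 24743 genes those tests called 501, 0 and 231. The median log2FC of the 82 was 0.58 (67 positive, 15 negative), against -0.01 over all genes tested. Read against the summed member reads instead of the library, 77 of the 82 were negative, since that scaling also moved the median of all genes to -2.50.

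In SNORD108 and SNORD64 control replicate 3 lay with the other controls. SNORD108, an imprinted single copy without a known rRNA target, was at 1.63, 0.767 and 1.13 CPM in the controls and at 2.42, 2.01 and 3.18 CPM in the treated libraries (log2FC = 1.14, SE 0.37, FDR = 0.325). SNORD64, a symbol with 2 annotated loci of which 1 lies in the same imprinted region inside an exon of SNHG14, was at 2.30, 2.30 and 2.27 CPM in the controls and at 3.23, 3.04 and 3.63 CPM in the treated libraries (log2FC = 0.55, FDR = 0.443). Neither member passed the test. SNORD31 and SNORD116-23 did not pass either and had 31 counts or fewer in each pre-treatment library (log2FC = 1.61 and 2.09, FDR = 0.352 and 0.350). SNORD3A had a log2FC of 1.06 with an SE of 0.84 (FDR = 0.660).

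Control replicate 3 was set aside when it was already known to stand apart in its small RNAs. Calls on small RNAs without it are not independent of that choice, and their p-values and FDRs do not allow for it. Without control replicate 3 the same test called 2952 of 26350 genes (11.2%), 784 higher (2.98%) and 2168 lower (8.23%). It covered 94 members and called 19 (20.2%), 17 of them higher (18.1%) and 2 lower (2.13%). At an unadjusted p under 0.05 were 37 of the 94 members and 10671 of the 26350 genes, about the same share. The median log2FC of the 94 was 0.65, against 0.01 over all genes tested, with 73 positive and 21 negative. Members passed the filter on low counts with only 2 libraries above it, so a member at 0 in the controls could pass through the treated libraries alone. Box H/ACA snoRNAs (SNORA) and small Cajal body RNAs (SCARNA), which guide pseudouridylation or act on spliceosomal RNAs, had 29 of 81 and 10 of 23 called higher, so the direction was not particular to box C/D members.

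Among rRNA-processing members all 5 U3 symbols were called higher, with log2FC of 3.07 (SNORD3A, SE 0.28, FDR = 0.000906), 3.08 (SNORD3D), 3.11 (SNORD3B-1), 3.41 (SNORD3C) and 3.44 (SNORD3B-2). Read against the summed member reads these values became -0.02, -0.03, 0.10, 0.51 and 0.53, and none was called higher. U3 makes up most of that sum. SNORD14A and SNORD14E had values of 0.65 (FDR = 0.316) and 1.36 (FDR = 0.139).

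Among guides of rRNA and small nuclear RNA, SNORD17 had the smallest p of all members (log2FC = 3.95, SE 0.21, FDR = 0.000144). SNORD94, a guide for U6 small nuclear RNA, was at 1.40 and 3.13 CPM in control replicates 1 and 2, 12.6 CPM in the control set aside, and 16.3, 10.6 and 12 CPM after treatment (log2FC = 2.60, SE 0.36, FDR = 0.00291). SNORD15B, a guide for large-subunit rRNA, was at 2.00, 4.21 and 14.6 CPM in the 3 controls and at 19.1, 12 and 12.7 CPM after treatment (log2FC = 2.32, SE 0.36, FDR = 0.00404). For both, control replicate 3 lay within the treated range. Under the scaling on summed member reads SNORD17 was at 0.93, SNORD94 at -0.38 and SNORD15B at -0.67.

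The other guides called higher had few reads. SNORD60 (log2FC = 1.99, FDR = 0.00677) and SNORD78 (1.69, FDR = 0.0257) each have 3 annotated loci. SNORD46 (2.18), SNORD8 (2.21), SNORD9 (2.13) and SNORD105B (3.19), named here after their values were seen, had 0 to 16 counts in control replicates 1 and 2. SNORD105B was at 0 in control replicate 1, and its fitted value is therefore no measure of size. Control replicate 3 was within the treated range for 13 of the 17 members called higher, above it for 1 and below it for 3, and it was nearer to the treated mean than to that of control replicates 1 and 2 for all 17. When the 5 libraries were removed one at a time, 8 of the 19 members stayed called every time (the 5 U3 symbols, SNORD17, SNORD15B and SNORD94), and without control replicate 2 the number called was 11.

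In the imprinted region on chromosome 15, SNORD116-20 (placed there by symbol) was called higher at the edge of the threshold (log2FC = 1.00, SE 0.17, FDR = 0.00544). SNORD116-19 (1.70, FDR = 0.0398) and SNORD116-13 (1.54, FDR = 0.0324) were called higher too. SNORD116-20 fell under the threshold of 1 in 11 of the 19 alternatives and turned to -2.07 against the summed member reads.

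The members called lower were symbols with several loci. SNORD74 had 25, 24 and 1 counts in the 3 controls and 1, 3 and 7 after treatment (log2FC = -3.29, SE 0.75, FDR = 0.0159). SNORD65 had 17, 12 and 2 counts in the controls and 7, 4 and 6 in the treated libraries (log2FC = -1.95, SE 0.62, FDR = 0.0491), and lost its call whichever of the 5 libraries was removed. SNORD5 (-2.56, FDR = 0.0522) and SNORD116 without a copy number (-2.15, FDR = 0.0581) had the same order of counts and did not pass. Control replicates 1 and 2, the libraries with the most reads outside annotated genes per counted read, held the highest counts of SNORD74, SNORD65 and SNORD116 in the series. All 4 symbols are among those in the study's supplementary lists, which were drawn from these same libraries and are not independent evidence of direction.

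Most annotated loci of these symbols lie away from the host genes their names are known for. SNORD5 has 3 loci on 3 chromosomes, of which 1 lies inside an exon of TAF1D. SNORD74 is known as an intronic snoRNA of GAS5, but the 7 loci of that symbol lie on 6 chromosomes, none of them in GAS5, and 3 lie within any gene. SNORD65 has 4 loci on 4 chromosomes and none within a gene, and the unnumbered SNORD116 has 3 on 3 chromosomes, outside the imprinted array. Of the 7 symbols of known GAS5 snoRNAs that were in the files, 1 of 23 loci (SNORD78) lay in GAS5. Of the 6 symbols of known SNHG1 snoRNAs, none of 8 loci lay in SNHG1. Whether the annotation used for counting placed them the same way is not given in the sources used here.

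As class sums, U3 and the members of 130 bases or more varied most between libraries, controls included (classes drawn after the values were seen, so given without a test). Summed over the 9 members with 1 locus and 130 bases or more, mostly SNORD17, the level was 32.7 to 235 CPM across the co-treatment controls, 29.7 CPM as the mean of pre-treatment control replicates 1 and 2, 326 CPM for control replicate 3 and 383 CPM as the mean of the pre-treated libraries. The 181 members under 100 bases summed to 14 to 17.8, 12.4, 15.9 and 18.5 CPM in the same order. The ratio of treated libraries to control replicates 1 and 2 was 12.9 for members of 130 bases or more, 8.12 for U3, 2.98 for members of 100 or more but under 130 bases, 1.61 for the 25 SNORD116 copies with 1 locus, 1.49 for members under 100 bases and 1.29 for symbols with several loci.  Across the 64 single-locus members tested without control replicate 3, U3 left out, Spearman's rho of length and log2FC was 0.12. Over the 44 of them that are not SNORD116 copies rho was 0.07. These values describe members of the same 5 libraries, and SNORD91B, also of 130 bases or more, had a log2FC of only 0.51.

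**Figure D3:**
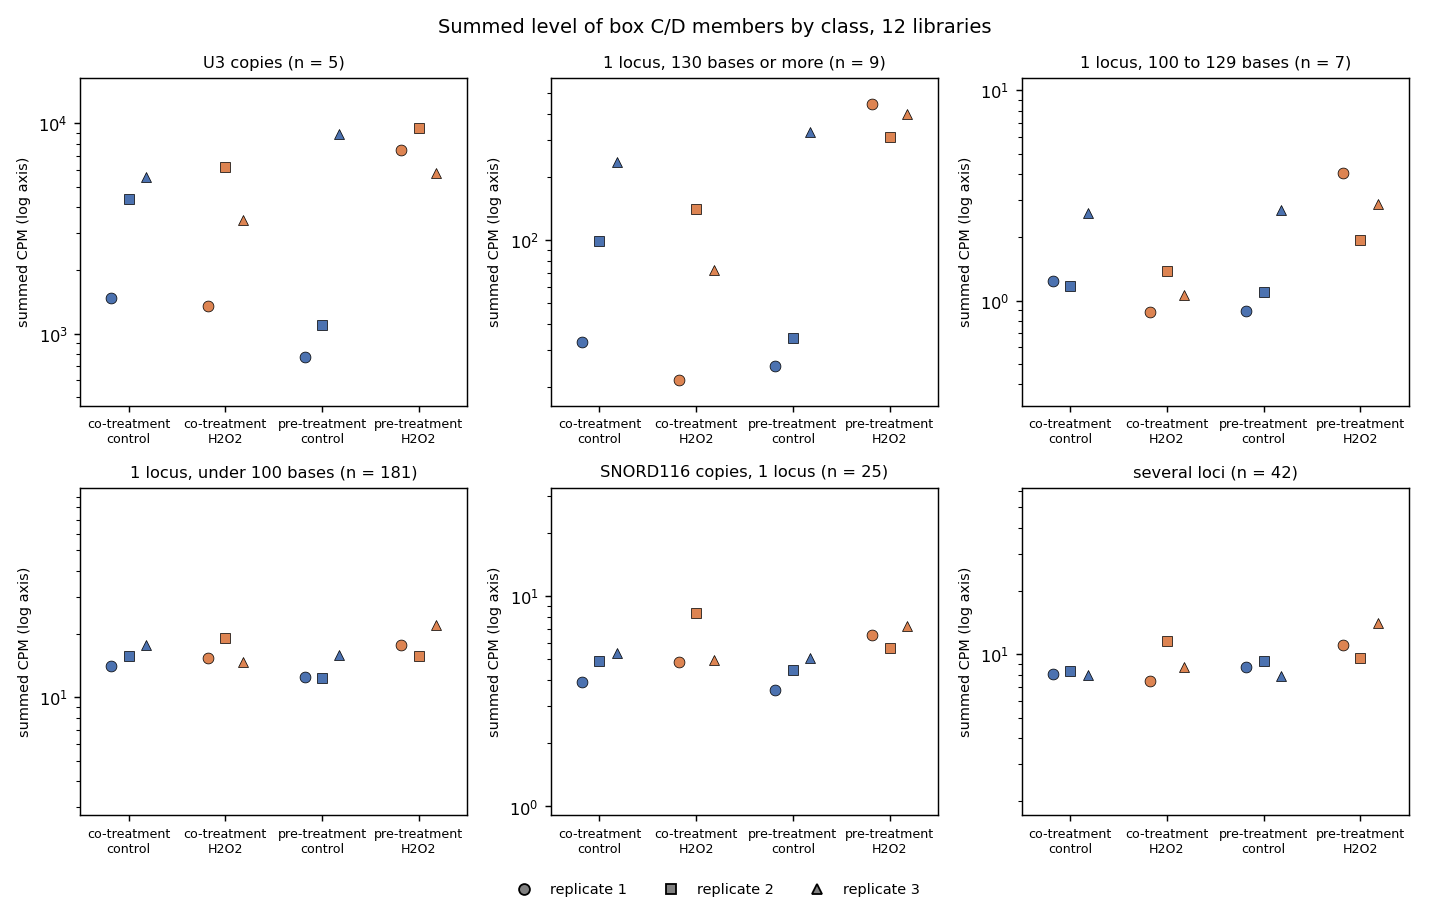
Summed CPM of 6 classes of members in each library (log axes, each spanning the same number of decades), with controls in blue, H2O2 in orange and the marker shape giving the replicate number. U3 and the members of 130 bases or more vary over 12.2-fold and 20.5-fold between the lowest and highest library, and the members under 100 bases over 1.79-fold.

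**Figure D4:**
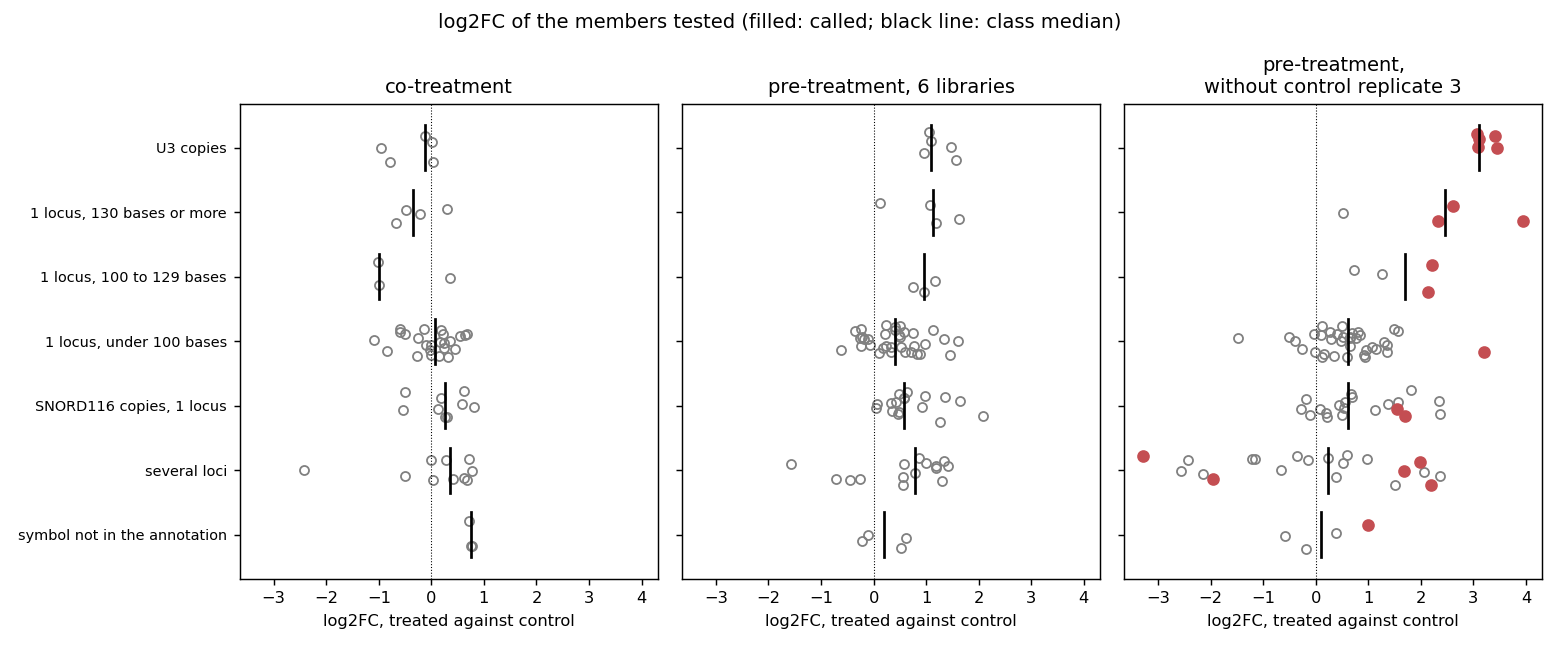
log2FC (horizontal axis, TMM scaling) of each member tested in the co-treatment, the pre-treatment over 6 libraries and the pre-treatment without control replicate 3, by class of member (vertical axis), with filled points for called members and a line at the class median. No member is called in the first 2 panels and 19 are in the third, led by U3 and long members. Against the summed member reads, without control replicate 3, 69 of 94 members were called lower and none higher. Under that scaling 25474 of 26350 genes were called lower.

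The SNORD116 copies and their neighbours in the imprinted region were examined as a group. Besides SNORD116-20 the 25 numbered SNORD116 copies summed to 4.72 ± 0.73 CPM in the co-treatment controls and 6.05 ± 1.95 in the co-treated libraries (SD, n = 3). They summed to 4.37 ± 0.75 CPM in the pre-treatment controls and 6.47 ± 0.76 in the pre-treated libraries (SD, n = 3). The co-treatment sums overlapped. In the pre-treatment experiment control replicate 3 was at 5.06 CPM and the lowest treated library at 5.67 CPM.

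Of the members of that region with enough reads, 11 of 13 tested in the co-treatment had a positive log2FC (median 0.29), as did 21 of 21 in the pre-treatment over 6 libraries (median 0.58) and 21 of 24 without control replicate 3 (median 0.63). SNORD116-20 and SNORD109A, which had no match in the annotation, were included by their symbols, and SNORD64 has 1 of its 2 loci there. Over all members tested, in the same order, 34 of 58, 67 of 82 and 73 of 94 were positive (medians 0.14, 0.58 and 0.65). The copies of the array share 1 transcript and near-identical sequence and are not independent of each other. SNHG14, the transcript annotated across the array, had a log2FC of 0.56 (FDR = 0.250) in the co-treatment, 0.27 (FDR = 0.695) over the 6 pre-treatment libraries and 0.06 (FDR = 0.742) without control replicate 3. Against the summed member reads SNORD116-20 kept its sign in the co-treatment (0.69) and took the opposite one in the pre-treatment (-1.61 over 6 libraries).

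The other imprinted arrays had few counted reads. SNORD115, whose copies are known to pair with serotonin receptor 2C RNA, had 11 counts over 44 numbered copies and 12 libraries, and 36 copies had none. Among the SNORD115 copies, groups of 4, 3 and 2 were identical in sequence, and reads aligned to more than 1 place, which were not counted, were 0.297 to 0.599 per counted read over the libraries. The part of this in the SNORD115 counts was not tested. SNORD113 and SNORD114, the array on chromosome 14, had 18 counts over 9 numbered copies and 68 over 30, led by SNORD114-20 with 27. All 26 numbered SNORD116 copies were counted, with 13411 reads, of which 9571 were on SNORD116-20. For members with so few reads a treatment difference was not detectable at this depth.

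Whether the treatment effect differed between the experiments was tested as an interaction over all 12 libraries. It called 7 of 24407 genes (0.0287%) at FDR below 0.05 and 0 of 76 members. At an unadjusted p under 0.05 were 2 members, beside 2183 of the 24407 genes. DESeq2 and limma-voom also called 0 members, with 108 and 2 of the 24407 genes called. The smallest p belonged to SNORD89 (interaction log2FC = 1.76, SE 0.74, FDR = 0.545) and SNORD5 (-3.03, SE 1.32, FDR = 0.549). SNORD116-20 had a difference of -0.12 with an SE of 0.31 (FDR = 0.930). Without pre-treatment control replicate 3, a library set aside with its small RNAs known, the interaction called 2060 of 24358 genes (8.46%). It called 8 of 75 members (10.7%), all with a larger log2FC in the pre-treatment. They were the 5 U3 symbols, SNORD17, SNORD94 and SNORD46, with values from 2.12 (SNORD46, FDR = 0.0499) to 4.55 (SNORD17, FDR = 0.0183).

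Of 37 listed genes for proteins that build, transport or trim box C/D particles none was called in the co-treatment or over the 6 pre-treatment libraries. At an unadjusted p under 0.05 were 2 and 4 of them (edgeR's quasi-likelihood test), beside 1800 of 22089 and 2776 of 24743 genes. Without control replicate 3, 18 of the 37 had a positive log2FC at FDR below 0.05 and none a negative one, against 13.2% of all genes tested with a positive log2FC at that FDR (3490 of 26350), and 1 passed the log2FC threshold, RRP9, the protein that binds the U3 B/C motif (log2FC = 1.04, SE 0.17, FDR = 0.00477). RRP9 was at 12.5, 13.2 and 28.6 CPM in the 3 controls and 25.1 ± 3.78 CPM after treatment (SD, n = 3). Of the core proteins NOP56 (0.82, FDR = 0.0162), NOP58 (0.79, FDR = 0.0290) and SNU13 (NHP2L1 in the files, 0.80, FDR = 0.00344) were positive at that FDR, and FBL, fibrillarin, the methyltransferase, was not (0.40, FDR = 0.188).

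Of 38 listed host transcripts (GAS5, SNHG genes, SNURF, SNRPN, IPW, MEG3 and MEG8) 20 were in the files. None of 17 tested was called in the co-treatment and none of 18 over the 6 pre-treatment libraries. At an unadjusted p under 0.05 were 2 and 3 of them (edgeR's quasi-likelihood test), beside 1800 of 22089 and 2776 of 24743 genes. Without control replicate 3, 5 of 18 were called higher and none lower. Of all genes tested there, 2.98% were called higher. The 18 had 16 positive and 2 negative values, the lowest at -1.03. Those called higher were GAS5 (log2FC = 1.45), SNHG1 (1.42), SNHG3 (2.50), SNHG12 (1.71) and SNHG15 (1.01). GAS5 was at 100.4, 76.4 and 199 CPM in the 3 controls and 229 ± 23.3 CPM after treatment (SD, n = 3). SNORD99, in SNHG12, had a log2FC of 1.36 (FDR = 0.115), and SNORD104, in SNHG25, one of 0.76 (FDR = 0.0960).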

How the data were processed

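Total RNA depleted of rRNA was sequenced as stranded paired-end libraries. The authors trimmed reads with Cutadapt 2.10, checked them with FastQC 0.11.8, aligned them to hg19 with HISAT2 2.1.0 and deposited raw counts per gene symbol from HTSeq 0.7.2, 1 file per sample. The annotation, strand setting and overlap mode are not given in the sources used here. No column lacked a sample (0). Rows that name no gene were kept out of library sizes, and their size is given as reads per counted read. From tables of the authors' own comparisons only the symbols they list were read, to choose members to name; their fold changes and p-values were not used.

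Counts were tested with edgeR 4.0.16 (TMM, glmQLFit, glmQLFTest, R 4.3.3), with Benjamini-Hochberg adjustment over all genes tested. The filter asked for a CPM worth 5 counts in the library with the fewest reads, met by 3 or more libraries (2 or more for the pre-treatment without control replicate 3). The log2FC thresholds (0.6 and 1) follow the study, and the interaction had none. DESeq2 1.42.0, limma 3.58.1 (voom), edgeR's exact test, other scalings and filters, and each library left out were alternatives. The code was tested on simulated data. Loci and sequences came from the GRCh37 genome with the GENCODE annotation lifted to it, by symbol: 226 members matched 1 locus, 42 several and 7 none.

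Members named were the 10 with the highest mean CPM, the 4 with the smallest p in each direction of each comparison, rRNA-processing members, the 3 most counted of each imprinted family, and symbols in the study's lists, of which those that bear on a result are described. Members and lists were chosen with earlier results of these data known.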

Additional observations from a re-analysis of the deposited data

How the results depend on the processing

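The number of members called moved with the setting in every comparison. In the co-treatment it was 0, against 4 with no filter on low counts, 1 with DESeq2 and 2 with edgeR's exact test, and 0 to 1 with 1 library left out (1 without co-treated replicate 1). Of all genes, 443 of 37237 were called with no filter, 307 of 22089 with DESeq2 or the exact test and 94 of 24402 without co-treated replicate 1. The number of members called over the 6 pre-treatment libraries was 0 to 19 with 1 library left out, 19 of them without control replicate 3, and 0 under every other alternative run. Without control replicate 3 it was 19 (2952 of 26350 genes), and 14 to 16 with 1 treated library also left out (1784 to 3540 genes). With summed member reads as library size it was 69 of 94, all lower, while 25474 of 26350 genes were called lower. Under it the log2FC turned to -1.55 for SNORD116-13, -1.22 for SNORD116-19, -2.07 for SNORD116-20, -0.67 for SNORD15B, -0.0177 for SNORD3A, -0.0336 for SNORD3D, -1.07 for SNORD60, -1.34 for SNORD78 and -0.38 for SNORD94. That scaling moves the median of all genes to -3.05, since U3 makes up most of the sum. Upper-quartile factors and library size alone moved it to -0.10 and -0.21. The interaction called 0 members, 2 with no filter (beside 272 of 42536 genes) and 8 over 11 libraries. The cause of the other changes was not tested.

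Replicate numbers did not pair the samples: residuals of same-numbered samples correlated at -0.078, -0.079 and -0.043 in the co-treatment and at -0.225, 0.026 and -0.273 in the pre-treatment. With the number as a block the counts of called members were 0 in the co-treatment, 0 over 6 pre-treatment libraries, 21 without control replicate 3 and 0 for the interaction. Genes called in the same order were 180 of 22089, 0 of 24743, 3760 of 26350 and 0 of 24407.

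Among named members that were not called, the sign changed under at least 1 alternative other than the scaling on summed member reads for 11 of 23 in the co-treatment, 3 of 28 over the 6 pre-treatment libraries, 2 of 17 without control replicate 3 and 6 of 28 in the interaction. With that scaling, which shifted the log2FC of members by unequal amounts, these numbers were 12, 20, 11 and 18.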

Other observations

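Some small-RNA symbols outside the SNORD naming were counted too and did not follow SNORD3A. The symbol U3, with 2905 counts over the 12 libraries, ran from 2.78 to 5.12 CPM, a 1.84-fold range against 12.4-fold for SNORD3A. The symbol snoU13 ran from 13.3 to 27.4 CPM, highest in pre-treatment control replicates 1 and 2 (27.2 and 27.4 CPM) and lowest in control replicate 3. The symbols U8 and snoU109 ran from 0.213 to 0.964 and from 0.584 to 1.62 CPM and were also highest in control replicate 2.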
